A study of Mus musculus with 10 samples.

Results

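Transcripts of the 2 corticosteroid receptors and of 3 of their classic targets were measured in mice kept apart from the mother and in mice that were not. The tissue was the paraventricular nucleus (PVN), where hypothalamic neurons start the hormonal stress response. The 5 genes are Nr3c1, which encodes the glucocorticoid receptor, Nr3c2, which encodes the mineralocorticoid receptor, and the targets Fkbp5, Sgk1 and Tsc22d3. Their spots were found by the descriptive name or old alias printed in the array files, and every such spot was read. This gave 8 of 22818 spots that were not controls: 2 for Nr3c1, 2 for Nr3c2, 1 for Fkbp5, 1 for Sgk1 and 2 for Tsc22d3. The spots were matched by name and not by clone sequence.

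The study set a 24 h separation of whole litters against no separation, with litters allotted at random, and no genetic change, drug or other treatment is named for either group. Strain, sex and age are not given in the sources used here. Per the labels' protocols, the nucleus was punched from frozen brains of 6 animals per group, amplified RNA was made from punches joined from 2 animals each, and the 3 samples of a group were then merged into 1 RNA pool. The same 2 pools were hybridised on 10 two-colour arrays. On 5 of them, called Cy5 arrays below, the separated pool carried the red dye Cy5. On the other 5, the Cy3 arrays, it carried the green dye Cy3. The arrays are technical repeats of 1 comparison with 1 sample per group. No p-value for separation was therefore computed, and every SD, interval and p-value below concerns the arrays of these 2 pools only. SDs over 10 arrays and sign-flip p-values also hold the difference between the dye orientations. The limma intervals and p-values come from a fit with a dye term, which takes that difference out. Each orientation was scanned on a day of its own, so dye orientation and scan day cannot be told apart.

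Corticosterone, the main glucocorticoid of mice, enters cells and binds both receptors. The mineralocorticoid receptor binds it more tightly than the glucocorticoid receptor, which is held in the cytoplasm by heat shock proteins and their partners until hormone arrives. The loaded receptors move to the nucleus and bind response elements in DNA, and glucocorticoid receptor in the PVN takes part in the feedback that restrains the stress axis. Fkbp5 encodes a cochaperone that lowers the hormone affinity of the glucocorticoid receptor. Sgk1 encodes a kinase that acts on ion channels and transporters, and Tsc22d3 encodes the glucocorticoid-induced leucine zipper, an inhibitor of inflammatory transcription factors. Transcripts of all 3 targets are known to rise when glucocorticoids act.

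DNA letters of the kind that these receptors are known to bind, shown here to picture how the targets are reached, occur before a start of Sgk1. The palindrome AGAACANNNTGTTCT and its arms AGAACA and TGTTCT were searched on both strands in the 250 bases before each gene start in RefSeq's promoter windows of build GRCm38.p6. The palindrome holds both arms, and each arm is the reverse complement of the other. Of 32851 windows, 3 held the palindrome (0.00913%), and 5284 (16.1%) held at least 1 arm. One of the 3 belonged to Sgk1, in 1 of its 6 windows, at chr10:21993640-21993889 on the plus strand, where the palindrome begins 189 bases before the start. A window of Tsc22d3, 1 of 3, at chrX:140600523-140600772 on the minus strand, held an arm that begins 185 bases before the start. Both windows are shown 5′ to 3′ with these letters in capitals, the palindrome as the longest run of capitals.
Sgk1: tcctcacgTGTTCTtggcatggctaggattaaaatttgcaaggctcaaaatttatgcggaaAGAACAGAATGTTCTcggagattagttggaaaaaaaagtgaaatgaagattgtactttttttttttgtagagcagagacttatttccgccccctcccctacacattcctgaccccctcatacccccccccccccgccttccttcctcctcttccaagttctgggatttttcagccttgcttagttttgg
Tsc22d3: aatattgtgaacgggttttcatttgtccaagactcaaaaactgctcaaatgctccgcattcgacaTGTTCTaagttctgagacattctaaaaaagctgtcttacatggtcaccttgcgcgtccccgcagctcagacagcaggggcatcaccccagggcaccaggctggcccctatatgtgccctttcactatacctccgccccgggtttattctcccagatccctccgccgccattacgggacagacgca
Among the other windows of Sgk1, those at chr10:21881934-21882183 and chr10:21991973-21992222 held 1 arm each. The single windows of Fkbp5 and Nr3c2 held neither arm, and no window of Nr3c1 is reported here. A match describes the letters only, since binding was not measured here.

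None of the 8 spots met the call, which asked for at least a 1.5-fold difference and the same sign on every array. Their values were the mean log2 ratios of the separated over the non-separated pool, and they lay between -0.16 and 0.20. The background was low too: 0.254% of all spots were called, 17 of 22818 higher (0.0745%) and 41 lower (0.18%), or 9 higher and 43 lower with print-tip loess. In limma, fitted on all spots, 0 of the 8 passed an adjusted p of 0.05 for the pool difference and 0 an unadjusted p of 0.05, where 0.364% and 15.1% of all spots did. With so few calls in all, the absence of a call in 8 spots is not a result particular to these genes. The directions rest on the dyes as the labels give them. Under that reading, the authors' own log ratios ran the other way on all 10 arrays (correlations of -0.96 to -0.92 with the ratios used here), and every sign given here reverses if the titles of the arrays refer to the Cy5 dye.

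**Figure D1:**
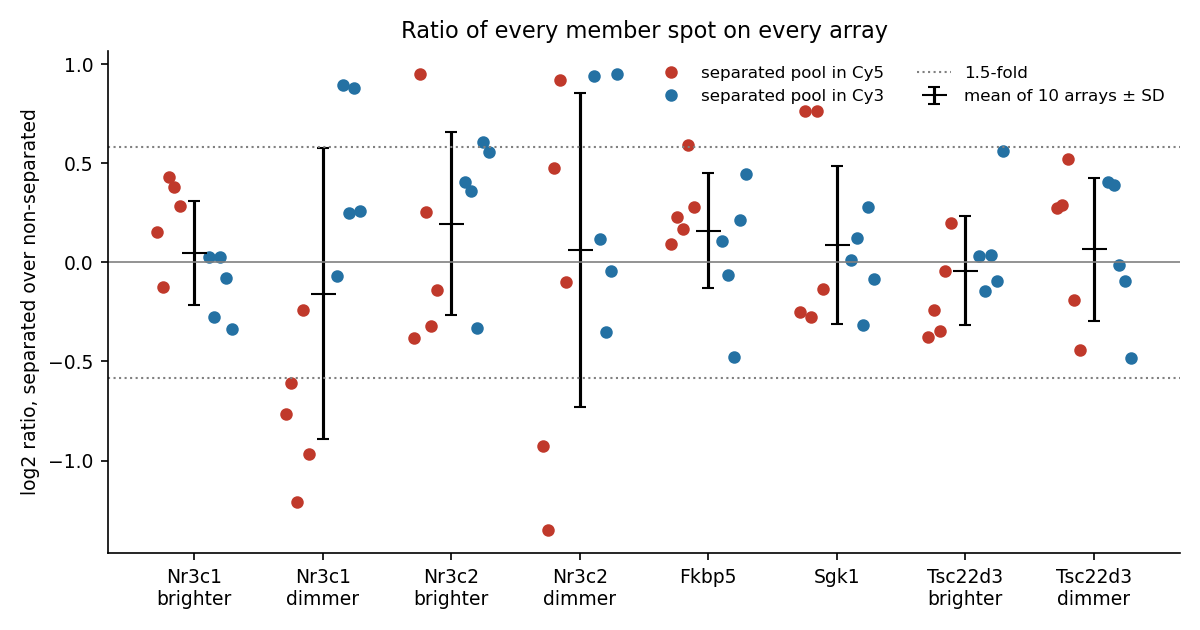
Log2 ratio of the separated over the non-separated pool (vertical axis) for the 8 spots (horizontal axis) on each of 10 arrays, red points for the Cy5 arrays (separated pool in Cy5) and blue points for the Cy3 arrays, in order of replicate number. Black bars give the mean and SD over the 10 arrays, dotted lines 1.5-fold; every mean lies between -0.16 and 0.20, inside the dotted lines, and the orientations separate only for the dimmer spot of Nr3c1.

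How far each spot stood out from spots without DNA set how much its ratio can tell. Of the 22818 spots, 2552 (11.2%) exceeded the 95th percentile of the 1170 empty spots, in either dye, on at least 8 of 10 arrays. The brighter spot of Nr3c1 did so on 10 arrays and that of Fkbp5 on 8, and these were the only 2 of the 8 that passed. The brighter spot of Tsc22d3 exceeded that level on 3 arrays and its dimmer spot on 1. Sgk1, both spots of Nr3c2 and the dimmer spot of Nr3c1 exceeded it on 0 arrays, and the values of these 4 spots come from signals within the range of the brighter empty spots. Most empty spots were much dimmer: their median lay between 57.8 and 86.8 in Cy5 and between 105 and 161 in Cy3. All 8 spots but the dimmer ones of both receptors exceeded that median in both dyes on all 10 arrays.

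**Figure D2:**
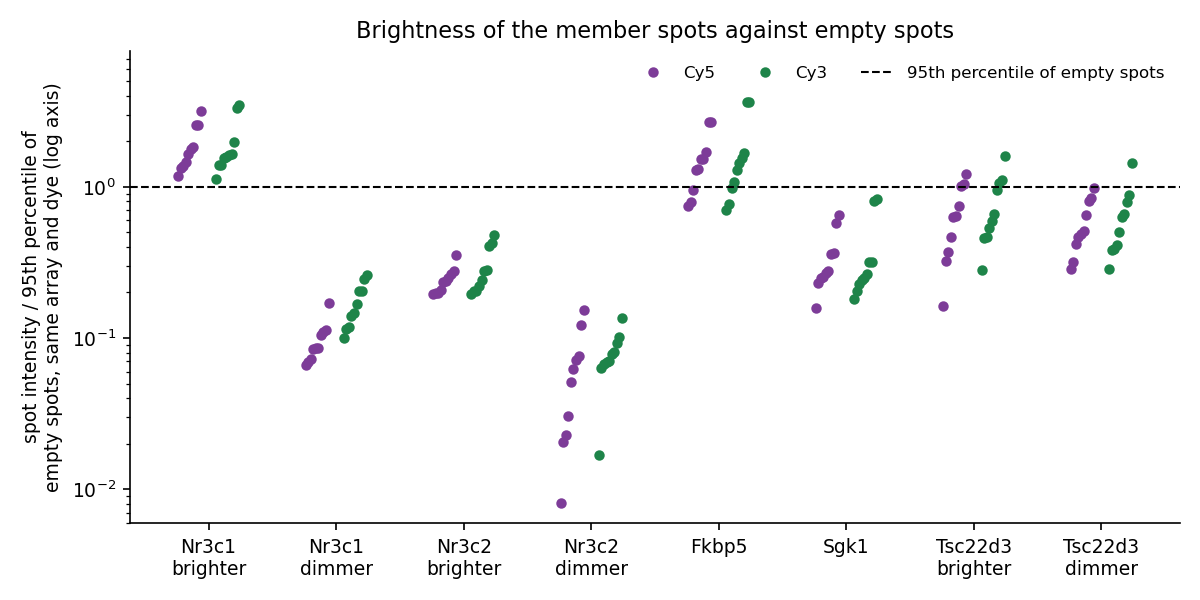
Spot intensity divided by the 95th percentile of the empty spots of the same array and dye (vertical axis, logarithmic) for the 8 spots, 10 arrays each, in order of size, with Cy5 in purple and Cy3 in green. The brighter spot of Nr3c1 lies above the dashed line at 1 on every array, between 1.12 and 3.49 times that level, while Sgk1 and both spots of Nr3c2 stay below it.

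The glucocorticoid receptor was read from a bright and a dim spot, and neither met the call or passed limma's threshold for the pools. The bright spot had intensities of 1800 to 3887 in Cy5 (median 2498) and of 2973 to 5965 in Cy3 (median 4733). On the Cy5 arrays, its log2 ratios on replicates 1 to 5 were 0.15, -0.13, 0.43, 0.38 and 0.29. On the Cy3 arrays they were 0.03, -0.28, 0.03, -0.08 and -0.34. The ratios of the first orientation were mostly above 0 and those of the second lay around or below 0, with overlap. The mean was 0.05 ± 0.26 (SD, n = 10 arrays), with 6 arrays above 0. In limma the adjusted p for the pool difference was 0.85 over all spots, and the 95% interval ran from -0.15 to 0.24, that is from 1.11-fold lower to 1.18-fold higher. The spread of this spot was lower than that of 92.5% of all spots, but it was also brighter than 93.2% of them. The median SD was 0.52 over all spots and 0.32 over those above empty spots.

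The dim spot of Nr3c1, named GR in the files, followed the dye orientation. It read -0.77, -0.61, -1.21, -0.24 and -0.96 on the Cy5 arrays, and -0.07, 0.90, 0.25, 0.88 and 0.26 on the Cy3 arrays. All 5 ratios of the first orientation lay below all 5 of the second, and the groups did not overlap. The share of all spots that separated in this way was not counted, so this may not be particular to the spot. Its mean of -0.16 ± 0.74 was thus an average of -0.76 and 0.44. It was the only one of the 8 spots with a dye term past the threshold in limma, at -0.60 on the log2 scale of Cy5 over Cy3 (adjusted p = 0.0226), where 5.49% of all spots had one. The adjusted p for the pool difference was 0.61. Taken alone, the Cy5 arrays would have called this spot lower, while the Cy3 arrays gave a value above 0.

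For the mineralocorticoid receptor, both spots were dim and neither met the call or passed limma's threshold for the pools. The brighter spot of Nr3c2 had intensities of 167 to 606 in Cy5 and of 370 to 1177 in Cy3. Its ratios were -0.38, 0.95, 0.25, -0.32 and -0.14 on the Cy5 arrays, and 0.41, 0.36, -0.33, 0.61 and 0.56 on the Cy3 arrays. The orientations overlapped, and each held values on both sides of 0. The mean was 0.20 ± 0.46, the largest of the 8 in size, with 6 of 10 arrays above 0, a limma interval of -0.12 to 0.51 and an adjusted p of 0.56. Of the 5 Cy3 arrays, replicate 3 alone lay below 0, and without it the mean was 0.28. Without replicate 2 of the Cy5 arrays, the highest of the 10, the mean was 0.09.

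The dimmer spot of Nr3c2, named MR in the files, was the faintest and most variable of the 8. Its intensity ranged from 13.9 to 182 in Cy5 and exceeded the median of the empty spots on 6 of 10 arrays in that dye. It read -0.93, -1.35, 0.47, 0.92 and -0.10 on the Cy5 arrays, and 0.94, 0.12, -0.35, -0.04 and 0.95 on the Cy3 arrays. High and low ratios occurred in both orientations, 5 arrays on each side of 0. The mean was 0.06 ± 0.79, and the limma interval ran from -0.42 to 0.54. That interval holds differences from 1.33-fold lower to 1.45-fold higher.

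The FK506 binding protein 5 transcript had the most arrays on 1 side of 0. Fkbp5 had intensities of 1291 to 3754 in Cy5 (median 1758) and of 2052 to 5499 in Cy3 (median 3609). Its ratios were 0.09, 0.23, 0.17, 0.59 and 0.28 on the Cy5 arrays, all above 0. On the Cy3 arrays they were 0.11, -0.06, -0.48, 0.22 and 0.45, on both sides of 0. The mean was 0.16 ± 0.29 with 8 of 10 arrays above 0, and the orientation means were 0.27 and 0.05. The limma interval ran from -0.07 to 0.39, or from 1.05-fold lower to 1.31-fold higher, with an adjusted p of 0.50. Fkbp5 had the lowest unadjusted p of the 8 spots, 0.15 in limma. Fitted among the 2552 spots above empty spots alone, where 41.8% were called, its adjusted limma p was 0.10. With an intensity trend in limma's variance estimate, 5.95% of all spots were called and 0 of the 8, with an adjusted p of 0.31 for Fkbp5.

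The kinase transcript Sgk1, with the palindrome in 1 of its 6 promoter windows, gave 0.09 ± 0.40. Its intensity lay between 283 and 736 in Cy5 and between 474 and 1242 in Cy3. The ratios were -0.25, 0.76, -0.28, 0.76 and -0.14 on the Cy5 arrays, and 0.01, 0.12, -0.32, 0.28 and -0.08 on the Cy3 arrays. Replicates 2 and 4 of the first orientation were high and the other 8 arrays lay between -0.32 and 0.28. With either one of these arrays left out, the mean was 0.01. The arrays divided 5 above and 5 below 0, the limma interval was -0.20 to 0.37 and the adjusted p was 0.81.

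Tsc22d3, the glucocorticoid-induced leucine zipper gene, had 2 spots of the same name, and their ratios went opposite ways on most arrays. The brighter spot read -0.37, -0.24, -0.35, -0.05 and 0.20 on the Cy5 arrays, and 0.03, -0.15, 0.04, -0.09 and 0.56 on the Cy3 arrays. The dimmer spot read 0.27, 0.29, 0.52, -0.19 and -0.44, and then 0.40, 0.39, -0.01, -0.09 and -0.48. The spots had the same sign on 3 of 10 arrays. Their means were -0.04 ± 0.28 and 0.07 ± 0.36, with limma intervals of -0.26 to 0.18 and of -0.20 to 0.34 and adjusted p-values of 0.89 and 0.85. Averaged over both spots on each array, the ratio was 0.01 ± 0.11. That spread is narrow because ratios of opposite sign cancel in the average, and it does not show a precise measurement.

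Spots of a gene were also set against each other within arrays. The brighter minus the dimmer spot gave 0.21 ± 0.94 for Nr3c1, 0.13 ± 0.94 for Nr3c2 and -0.11 ± 0.60 for Tsc22d3 (n = 10 arrays). Nr3c2 minus Nr3c1, each from its brighter spot, gave 0.15 ± 0.66, with 5 of 10 arrays above 0. None of these 4 differences was larger than the spread between arrays, with a two-sided exact sign-flip permutation test giving p = 0.50, 0.70, 0.58 and 0.48 and an adjusted p of 0.70 for each (the smallest p that 10 arrays allow is 0.00195). For Nr3c1 the mean hides a split by orientation: the difference between its spots was 0.98 on the Cy5 arrays and -0.57 on the Cy3 arrays. The spots of Nr3c1 had the same sign on 2 of 10 arrays and those of Nr3c2 on 7. Whether spots of 1 gene name carry the same transcript was not tested.

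In limma, 5.49% of all spots passed the threshold for the dye term, which carries the orientation, and 0.364% for the pool difference. The orientation means of 4 of the 8 spots had opposite signs, against 56.1% of all spots. Over all spots the means of the 2 orientations correlated at -0.15, a description across spots that share arrays, dyes and scan days.

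**Figure D3:**
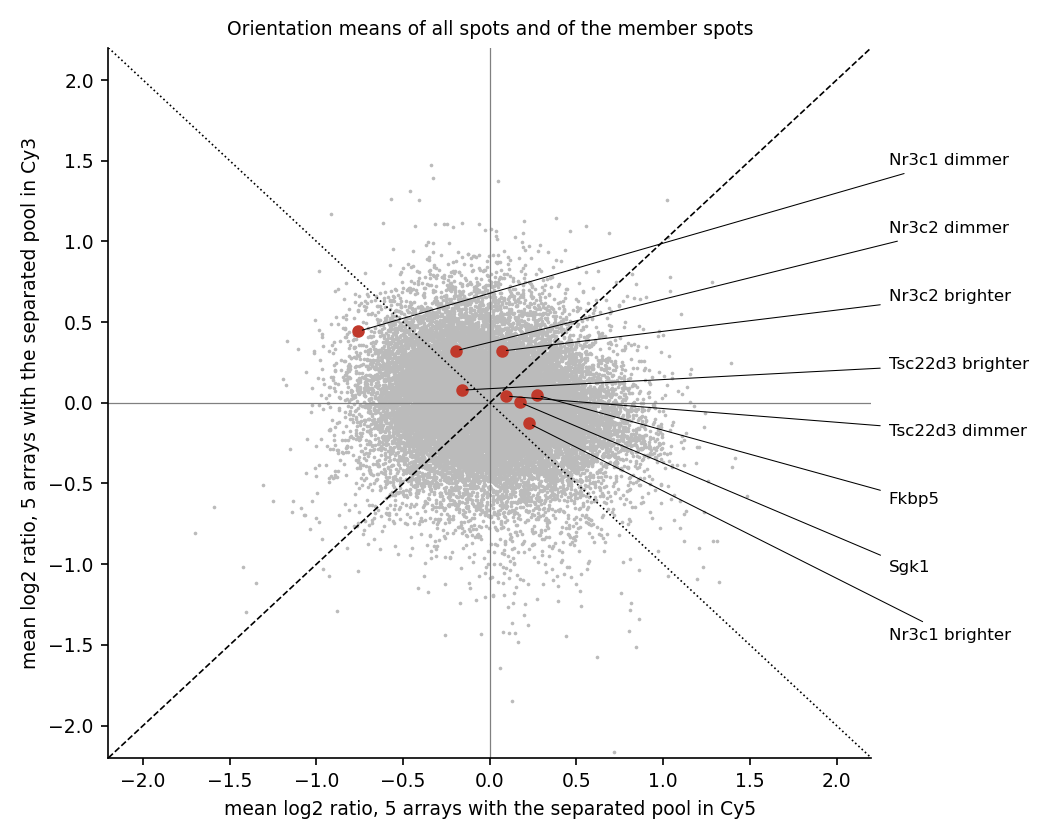
Mean log2 ratio of the separated over the non-separated pool on the 5 Cy5 arrays (horizontal axis) against the 5 Cy3 arrays (vertical axis), grey for all 22818 spots and red for the 8 spots of the receptors and targets. A difference between the pools lies along the dashed line and a dye or scan day effect along the dotted one; the dimmer Nr3c1 spot, at -0.76 and 0.44, lies out along the dotted line and the others near the centre.

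The genes whose 10 ratios ran most like those of each member were all read from dim spots. Among 7061 spots with a gene symbol, the brightest spot of Nr3c1 was most like Ift57 (Pearson r = 0.93) and Cic (0.91), and that of Nr3c2 most like Fam122b (0.92) and Eola1 (0.91). Fkbp5 was most like Nemp2 (0.89) and Ddx56 (0.88), Sgk1 most like Ppargc1a (0.91) and Plac8l1 (0.90), and Tsc22d3 most like 2010320M18Rik (0.91) and Rab6b (0.91). None of the spots that gave these 10 genes their correlations was above empty spots, and other spots of the same genes were not looked at for this. These are the highest of a very large number of correlations over the same 10 arrays, which share dye and scan day, and they are a description without a test.

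The wider corticosteroid pathway was read from 6 gene lists with 93 genes, of which 80 were matched to a spot by name. Of the 80, 0 were called higher and 1 lower, where 0.0568% of all 12318 genes were called higher and 0.203% lower. Their median was 0.0048, with 41 above and 39 below 0, beside a median of 0.0061 over all genes. Only 18 of the 80 were above empty spots. The lists were chosen with results of these data known.

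**Figure D4:**
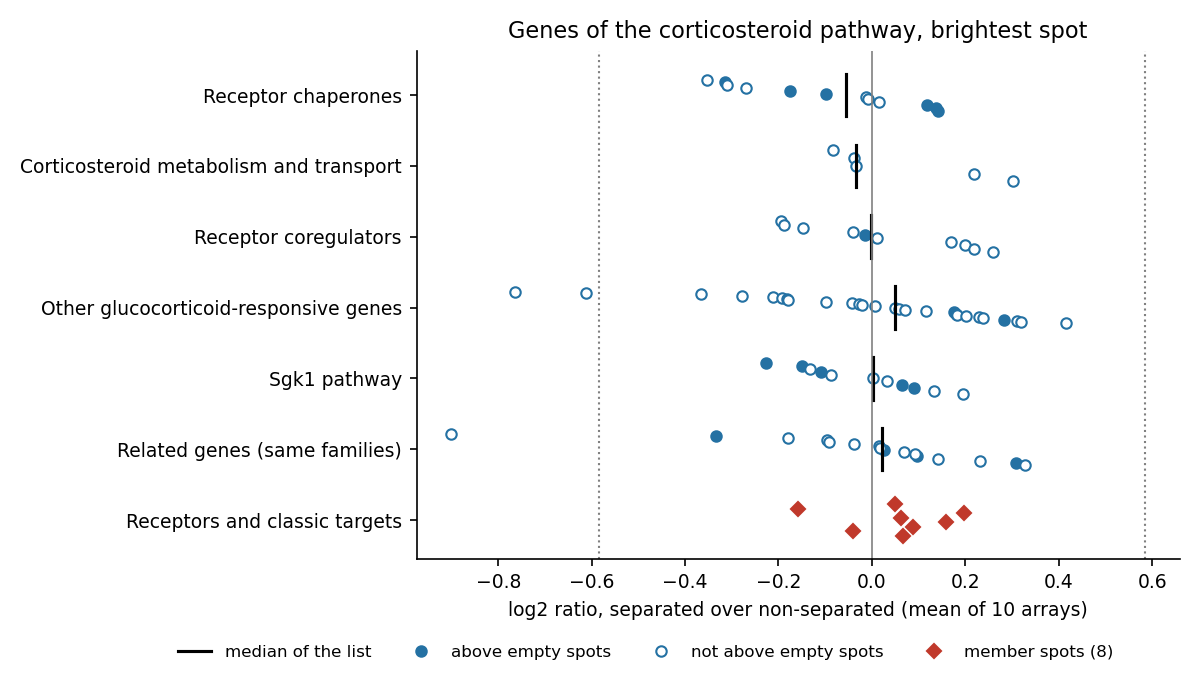
Mean log2 ratio over 10 arrays (horizontal axis) of each gene's brightest spot in 6 lists of the corticosteroid pathway, filled circles for genes above empty spots and open circles for the others, with the list median as a black bar; red diamonds are the 8 spots of the receptors and classic targets. Dotted lines mark 1.5-fold; 3 of the list genes lie beyond them, of which only Mt1 had the same sign on every array.

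The chaperones that hold the receptors ready for hormone gave 0 calls among 12 of 13 genes, with 4 values above and 8 below 0 and a median of -0.06. The lowest were Stip1, which links heat shock proteins Hsp70 and Hsp90, at -0.35 ± 0.69, and Hsp90ab1, which encodes the constitutive Hsp90, at -0.31 ± 0.28 and below 0 on 9 of 10 arrays. Highest were Dnaja1, a cochaperone of Hsp70, at 0.14 ± 0.34 and Hspa4, a member of the Hsp70 family, at 0.14 ± 0.33. The median of these genes was -0.36 on the Cy5 arrays and 0.05 on the Cy3 arrays. The list median below 0 thus came mainly from 1 orientation. Hsp90ab1 was below 0 in both orientations, at -0.40 and -0.23, and so was Stip1, at -0.61 and -0.10. Of the 12, 6 were above empty spots, the largest share of the 6 lists.

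Among genes that make, break down or carry corticosteroids, 5 of 7 were matched, 0 were called and 0 were above empty spots, with a median of -0.03. Serpina6, the corticosteroid binding globulin gene, lay at 0.30 ± 0.34 and was above 0 on 8 of 10 arrays. H6pd, which supplies the reducing cofactor to the enzyme of Hsd11b1, lay at 0.22 ± 0.51. Hsd11b1, which regenerates active glucocorticoid, lay at -0.04 ± 0.53, and Srd5a1, a steroid 5-alpha-reductase gene, at -0.08 ± 0.40.

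The coregulators that receptors recruit on DNA gave 0 calls among 10 of 12 genes, divided 5 above and 5 below 0, with a median of -0.0022. The coactivator genes Ncoa2 and Ncoa3 were highest, at 0.26 ± 0.34 and 0.22 ± 0.34. Nrip1, a corepressor of nuclear receptors, was lowest, at -0.19 ± 0.44. The other spot of each of these genes had the opposite sign, at -0.04 for Ncoa2, -0.21 for Ncoa3 and 0.06 for Nrip1. Only 1 of the 10 was above empty spots.

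In the Sgk1 pathway, the activators, substrates and channels downstream of the kinase, 0 of 11 matched genes of 13 were called, and the median was 0.0024. Pdpk1, the kinase that phosphorylates Sgk1, lay at -0.23 ± 0.33, and Nedd4l, a ubiquitin ligase that Sgk1 inhibits, at -0.15 ± 0.24. Gsk3b, a kinase that Sgk1 can phosphorylate, lay at 0.19 ± 0.38 and the Sgk1 substrate gene Ndrg1 at 0.13 ± 0.22. Both Pdpk1 and Nedd4l were above empty spots, as were 5 of the 11 in all.

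Relatives of the 5 genes, the other steroid receptors and members of the Fkbp, Sgk and Tsc22d families, gave 0 calls among 16 of 20, with a median of 0.02. Fkbp11, which encodes an FK506 binding protein of the secretory pathway, was lowest at -0.90 ± 0.62, beyond 1.5-fold, but 1 of 10 arrays lay above 0 and the spot was not above empty spots (limma adjusted p = 0.075). Fkbp2, which encodes an FK506 binding protein of the endoplasmic reticulum, lay at -0.33 ± 0.17. It was bright and below 0 on all 10 arrays, as 1.32% of all spots were on 1 side of 0 throughout, and it stayed under the size limit (limma adjusted p = 0.12). Fkbp9 at 0.33 ± 0.77 and Fkbp1a at 0.31 ± 0.58 were the highest. Other Fkbp genes thus had values on both sides of that of Fkbp5.

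Of 27 matched genes among 29 others known to respond to glucocorticoids, 0 were called higher and 1 lower, with 15 above and 12 below 0 and a median of 0.05. The call was Mt1, a metallothionein gene, which fell by 0.61 ± 0.31 with 10 of 10 arrays below 0 (limma adjusted p = 0.020), while its neighbour in the family, Mt2, lay at 0.0071 ± 0.42. The Mt1 spot was not above empty spots. The list was counted by brightest spots. Glul, the glutamine synthetase gene, named here after its values were seen, had 3 of 9 spots called lower, the lowest at -0.99. Its brightest spot lay at 0.18 ± 0.74 and was not called, and this was an average of 0.87 on the Cy5 arrays and -0.51 on the Cy3 arrays. The median of these genes was 0.18 on the Cy5 arrays and -0.09 on the Cy3 arrays. Beside Mt1, which astrocytes also express, the brightest spots of all 7 astrocyte markers read here lay below 0, between -1.22 and -0.02 with a median of -0.42. That median was -0.61 on the Cy5 arrays and -0.21 on the Cy3 arrays. Gjb6, Aldoc, Gja1 and Gfap had means below 0 in both orientations, while those of Slc1a2, Aqp4 and Slc1a3 changed sign between them. Aqp4 and Slc1a3 were below 0 on only 5 of 10 arrays. Of the 7, 2 were called lower, Gjb6 and Aldoc, where 0.203% of all genes were, and Gjb6 was not above empty spots. Every spot of Aldoc and Gja1 lay below 0, while other spots of Slc1a2, Gfap and Slc1a3 reached 0.23, 0.13 and 0.10. The part of astrocyte content in the Mt1 value was not tested.

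The markers of the labelled tissue could not be checked with much force. Of 6 matched PVN neuron markers, 0 were above empty spots, among them Avp, Oxt, Crh and Trh, and none was called, with values between -0.53 and 0.24. Of the other markers, 3 of 6 oligodendrocyte, 1 of 5 microglial, 0 of 5 vessel and 1 of 3 blood genes were above empty spots and none was called. The bright blood gene, Hbb-b1, lay at 0.45 ± 0.16 and above 0 on 10 of 10 arrays, under the size limit (limma adjusted p = 0.0503). The dim blood genes Hba-a1 and Alas2 lay at -0.05 and -0.20. All 5 microglial genes lay above 0, with a median of 0.20. Because RNA came from whole punches, fewer cells of a type and less RNA per cell cannot be told apart. The median spot of an array had an intensity of 269 to 489 in Cy5 and 404 to 929 in Cy3. Replicate 3 of the Cy3 arrays stood apart before normalization, with a median log2 Cy5 over Cy3 of 0.32 where the other 9 arrays lay between -1.31 and -0.63. Without it, the values of the 8 spots lay between -0.13 and 0.28, and none was called.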

How the data were processed

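Each array file held 24192 spots. Spot intensity was deposited by the authors on a linear scale, quantified with QuantArray without background subtraction, per the file headers. The background values of the files, which were 0 for 91.6% to 100% of spots, were read too and entered the correction below. A table of log2 ratios deposited by the authors served as an alternative; how they normalised it is not given in the sources used. In R 4.3.3, limma 3.58.1 corrected intensities with normexp (offset 50) and ratios with global loess. The 1374 control spots were given weight 0. Ratios were turned to separated over non-separated, and each gene's brightest spot was used. A value is the mean over 10 arrays, and their number limits its precision. limma fitted a dye intercept and the pool difference on all 22818 spots with Benjamini-Hochberg adjustment. In data simulated on these spots, the call recovered 34% of 1.5-fold and 81% of 2.25-fold changes, and limma 50% and 88%.

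Replicate numbers occur in both orientations. Deviations of same-numbered arrays correlated between -0.02 and 0.03, so the numbers did not pair the arrays, and no block was used. Named are all spots of the 5 genes, the 2 genes most like each, and per list the called genes or else the 2 highest and 2 lowest. The result for 1 such gene is not reported here, though it remains in all counts and medians. Spots carry descriptive names. Symbols were given by hand to 107 names, and others were matched to RefSeq's gene table. The members and lists were chosen with earlier results of these data known. Alternatives changed the background correction, normalization, call, detection, orientation and arrays.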

Additional observations from a re-analysis of the deposited data

Results flagged for a closer look

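In 58 groups of 5 arrays, each the values of 1 named spot in 1 dye orientation, an array far from the other 4 was looked for, and 5 groups held one. By chance about 1 in 20 groups, here 2.90, would hold one. On replicate 3 of the Cy3 arrays, which are those with the separated pool in that dye, the brighter spot of Nr3c2 lay at -0.33, where the other arrays of that orientation lay between 0.36 and 0.61. On replicate 5 of that orientation, the brighter spot of Tsc22d3 lay at 0.56, against -0.15 to 0.04. Pathway genes had such an array too. The Hsp70 family gene Hspa4 lay at -0.47 on the same replicate 5, against 0.09 to 0.22. The coactivator gene Ncoa2 lay at 0.47 on replicate 1 of the Cy3 arrays, against -0.05 to 0.09. Fkbp9, of the FK506 binding protein family, lay at 1.62 on replicate 3 of the Cy5 arrays, against 0.29 to 0.60. What set these arrays apart was not tested.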

How the results depend on the processing

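The median of the member spots, 0.06 over all 8, lay between 0.02 and 0.10 under all 19 alternatives. Not every alternative held all 8: the authors' values had none for Sgk1. With spots above empty spots only, the brighter Nr3c1 spot and Fkbp5 alone remained. All 148 alternative values of single spots stayed within 1 SD of the value reported, though 11 had the opposite sign. With 1 orientation alone or 1 array left out, this follows from how mean and SD are computed and does not measure stability. The dimmer Nr3c1 spot, for example, ran from -0.76 to 0.44 between the orientations. No spot was called under 20 of 21 alternatives; with the Cy5 arrays alone, 1 was (the dimmer Nr3c1 spot, lower). Over the whole table, the 58 called spots became 1601 and 686 on the Cy5 and the Cy3 arrays alone, 220 at a lower fold limit, 122 with the same sign on at least 9 arrays and 16 among spots above empty spots. The 32 called genes (7 higher, 25 lower) became 965, 353, 141, 63 and 7 in the same order, and 19 when all spots of a gene were averaged. With print-tip loess they were 3 higher and 26 lower. Without replicate 1 of the Cy3 arrays, 32 spots in place of 17 and 17 genes in place of 7 were higher. In limma, 83 spots passed for the pool difference, 25 to 43 with 1 array left out, 1066 of the 2552 spots above empty spots and 1357 with an intensity trend in the variance, chosen after the data were seen. With the replicate number as a block, 4 passed, though the numbers did not pair the arrays, and 2 of 5 correlated best with their own number. None of the 8 spots passed in the fit reported, with the trend (lowest adjusted p = 0.31), with the block (0.53) or above empty spots (Fkbp5 0.10, Nr3c1 0.57). The causes of these shifts were not tested. The main limits are 1 pool per group, dim spots for most of these genes, and dye orientation that falls together with scan day.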
